A study of Mus musculus with 12 samples.

Results

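The Zfp genes are the mouse genes whose products were named as zinc finger proteins and numbered in the order of their description. The group described here held every gene of the deposited table whose symbol was Zfp followed only by digits and whose signal, the read count divided by the size factor of its library, reached 50 or more in 3 or more of the 12 libraries. Of 341 such symbols, 252 were chosen by these values, 44 were tested but stayed below that level, 33 had reads but were not tested and 12 had no read. The signal thus chose the members, and their levels are given below as a description. Just outside the limit lay Zfp433, Zfp418 and Zfp438, whose third-highest signals were 46.4, 46.8 and 49.9, and just inside it lay Zfp551, Zfp442 and Zfp493 with 51.0, 54.3 and 56.0.

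RNA came from mouse embryonic fibroblasts (MEFs) of C57BL/6 embryos, either wild type (WT) or knockout (KO) for type 2 transglutaminase (TG2, the calcium-dependent cross-linking enzyme encoded by Tgm2). Both kinds of MEF had been passaged until they became immortal spontaneously, so genotype and the separate immortalization of the 2 cell populations cannot be told apart. Each genotype was kept at 37 °C (control) or placed at 42 °C for 20 min (heat shock), with 3 libraries in each of the 4 groups. No source states that replicate libraries were made from separate cultures, and the p-values below may therefore rest on technical spread alone. Libraries held 15319300 to 27668395 reads in genes. Tgm2 had a mean signal of 1664 ± 76.5 (SD, n = 3) in WT control and 1095 ± 82.7 in KO control, and the table, with 1 value a gene, cannot show which part of it was deleted. Of 11 fibroblast markers, 10 had a mean signal of at least 50 (Lum did not), and the summed signal of 5 epithelial and of 4 endothelial markers was at most 55.1 in every library. That of 5 leukocyte markers, nearly all of it Cd68, was 105 to 152 in WT control, 192 to 215 in heat-shocked WT, 76.6 to 94.4 in KO control and 122 to 135 in heat-shocked KO, and its part in the results was not tested.

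A zinc finger of the Cys2-His2 type is a short loop held by a zinc ion, and an array of such fingers reads a stretch of DNA. The largest class of these proteins joins the array to a KRAB domain, which recruits the corepressor Trim28 (KAP1) and through it the histone methyltransferase Setdb1, and many of its members silence retroelements. Other Zfp proteins have no KRAB domain and bind RNA, ribosomes, chromatin enzymes or the cytoskeleton, so the symbol marks a history of naming rather than 1 function. In embryonic fibroblasts several of them are known for steering cells towards or away from the fat lineage.

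A reading frame could be taken from the GENCODE M21 transcripts for 250 of the 252 genes. A pattern search found a KRAB-type motif in 129 of them and none in 121, and the pattern can miss true KRAB domains. The median number of finger matches was 12 in the first class and 7 in the second, and 11 genes had no match, among them Zfp36, Zfp185, Zfp503, Zfp608, Zfp704 and Zfp703. Per kilobase of exon, the mean signal over the 12 libraries ranged from 3.66 for Zfp738 to 800.0 for Zfp740 (median 52.5), with medians of 36.9 in genes with a KRAB motif and 93.2 in those without. The genes with the highest mean signal were Zfp106, Zfp706, Zfp740, Zfp207 and Zfp598, at 776, 746, 800.0, 492 and 689 per kilobase. All of them lacked a KRAB motif. Zfp106 encodes an RNA-binding protein, Zfp207 a protein that brings Bub3 to kinetochores, and Zfp598 a ubiquitin ligase that marks collided ribosomes.

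Zfp882, Zfp810, Zfp454 and Zfp764 had reads in 1 genotype and at most a single read in the control libraries of the other. The promoters of 3 of them are shown as examples, and Zfp454, which has more than 1 listed start, is not shown. Each line gives the 250 bases before the RefSeq start (GRCm38.p6) on the strand of the gene, and capitals mark CG dinucleotides, the sites of DNA methylation in mammals. The windows are chr8:71908356-71908605 (plus strand) for Zfp882, chr9:22307639-22307888 (minus strand) for Zfp810 and chr7:127406823-127407072 (minus strand) for Zfp764.
Zfp882: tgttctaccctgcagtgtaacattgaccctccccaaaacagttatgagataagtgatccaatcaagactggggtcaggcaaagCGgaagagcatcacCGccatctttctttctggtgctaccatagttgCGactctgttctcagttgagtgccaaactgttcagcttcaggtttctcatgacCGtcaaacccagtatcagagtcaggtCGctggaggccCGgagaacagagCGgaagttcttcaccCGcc
Zfp810: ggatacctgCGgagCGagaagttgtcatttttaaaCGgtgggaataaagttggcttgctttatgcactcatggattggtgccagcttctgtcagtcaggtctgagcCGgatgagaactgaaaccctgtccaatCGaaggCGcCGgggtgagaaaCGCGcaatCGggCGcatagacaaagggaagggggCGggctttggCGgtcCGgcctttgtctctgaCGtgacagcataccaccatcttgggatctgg
Zfp764: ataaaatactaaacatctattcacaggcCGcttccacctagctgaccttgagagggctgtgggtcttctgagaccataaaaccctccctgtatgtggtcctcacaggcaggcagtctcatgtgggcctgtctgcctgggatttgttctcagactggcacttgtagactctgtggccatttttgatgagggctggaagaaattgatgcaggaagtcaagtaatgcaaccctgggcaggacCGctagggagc
The windows held 8, 15 and 2 CG dinucleotides. The median was 12 over the 207 member genes in the promoter table and 16 over its 9867 genes that were tested. Methylation was not measured in these cells.

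In control cells, the share of Zfp genes that were lower in KO was close to that of the whole table, and the share that were higher was smaller. A gene was called when limma, run on log2(signal + 1) over 14201 genes, gave a Benjamini-Hochberg adjusted p up to 0.05 with a fold of 1.5 or more. By this criterion 63 of the 252 genes were lower in KO control than in WT control and 26 were higher, 35.3% in all. Among all genes tested 48.8% were called, and among the 11725 tested genes at the same level 45.1%. Lower were 25.0% of the Zfp genes, against 25.8% of all genes tested and 25.1% of those at the same level. Higher were 10.3%, against 22.9% and 20%. Their median difference was -0.19 on the log2 scale, with quartiles of -0.57 and 0.21, against -0.04 over all genes tested and -0.06 over those at the same level. The KO control libraries lay wholly below the WT control libraries in 107 of the 252 genes (42.5%) and wholly above them in 56 (22.2%), whether called or not, against 42.6% and 35.4% of all genes at the same level. Quantile normalization moved the median of all genes by 0.12 and gave 40 lower and 44 higher Zfp genes, so that the share of calls that were higher went from 29.2% to 52.4%. These were 15.9% and 17.5% of the Zfp genes, against 22.1% and 24.4% of all genes at the same level. Their median became 0.04, with 0.09 over all genes tested, and the gap between the medians went from -0.15 to -0.05. Under it 23 of the 63 calls ended, while the 26 higher calls remained. Of 4 neural markers, Map2 had a mean signal of 516 in WT control and 0 in KO control, Tubb3 had 1047 and 1022 (adjusted p = 0.718), and Sox10 and Gfap were near 0 in both.

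Of the 252 genes, 10 reached a signal of 50 only in WT libraries and 5 only in KO libraries, and the rule favours a difference in such genes. Zfp882, Zfp810, Zfp454, Zfp185, Zfp704, Zfp11 and Zfp442 are among the former and Zfp764, Zfp493 and Zfp473 among the latter, and their values are given as a description. Without these 15 genes, 53 of 237 genes were lower (22.4%) and 22 were higher (9.28%), 31.6% in all. Among all genes at the same level 25.1% were lower and 20% higher. Genes at that level in 1 genotype only were not removed from the latter, so the shares are not fully alike.

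Zfp882 (chr8:71908608-71916354, GRCm38) encodes a KRAB protein with 13 finger matches. Its signal was 112, 134 and 167 in WT control, 109, 84.8 and 97.8 in heat-shocked WT, and 0 in all 6 KO libraries. The 532 reads of WT control against no read in KO control put it at least 142-fold lower in KO, counting 3 reads over the group as the floor. Zfp810 (chr9:22276748-22307648), another KRAB gene with 10 finger matches, showed the same pattern, with 90.2, 116 and 111 in WT control, 104, 83.7 and 74.4 in heat-shocked WT, and 0 in every KO library. It was at least 109-fold lower in KO control. In both genes the genotypes were fully apart at either temperature.

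Zfp764 (chr7:127403668-127406822), a KRAB gene with 9 finger matches, lay in the opposite direction. Its signal was 132, 142 and 138 in KO control and 109.6, 134 and 116 in heat-shocked KO, against a single read in WT control and none in heat-shocked WT. The 417 reads to 1 gave a ratio of 520.5, with a 95% counting interval (exact binomial) of 92.9 to 20607. In the heat-shocked cells Zfp764 was at least 106-fold higher in KO. Such intervals and floors cover counting error only. Of the windows of 50 bases in its transcripts, 27.1% also occurred in the transcripts of another gene. Part of its reads could therefore have been lost or assigned elsewhere. How reads that match several genes were counted is not given in the sources used here.

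Zfp454 (chr11:50872720-50887651), with 12 finger matches and a KRAB motif, had 62.2, 60.6 and 65.7 in WT control and 238 reads there against 1 in KO control, a ratio of 191 (33.9 to 7563). Zfp185 (chrX:72987339-73031543), which in spite of its name encodes a LIM-domain protein of the actin cytoskeleton, had 70.5, 77.3 and 71.3 in WT control and 2.12, 0 and 1.13 in KO control. Its 277 reads to 3 gave a ratio of 74.0 (25.1 to 361). Neither gene had KO libraries near those of WT.

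Zfp704 was the next in size and is related to Zfp395 in sequence. Its signal was 438, 435 and 483 in WT control, 370.4, 281 and 252 in heat-shocked WT, 43.5, 23.3 and 31.7 in KO control, and 14.7, 24.9 and 18.8 in heat-shocked KO. The KO control libraries were all below the WT libraries of both temperatures, a log2 difference of -3.79 ± 0.22 (SE). The remaining members of the 12 largest decreases were Zfp11, Zfp37, Zfp651, Zfp141, Zfp638, Zfp41 and Zfp442, with log2 differences from -2.36 (Zfp11) to -1.35 (Zfp442). For Zfp442, 32.1% of the 50-base windows were shared with another gene.

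Zfp503, which encodes a corepressor of the NET family known from the striatum and the limb, was the most increased gene that was read well in both genotypes. Its signal was 403, 455 and 366 in WT control, 512, 586 and 497 in heat-shocked WT, 2666, 2175 and 2223 in KO control, and 2457, 2671 and 2416 in heat-shocked KO. All KO libraries lay above all WT libraries, and the log2 difference in control cells was 2.53 ± 0.09 (adjusted p = 4.74e-12). Zfp608, Zfp319, Zfp493, Zfp473, Zfp239, Zfp358, Zfp697, Zfp580, Zfp688 and Zfp521 followed with log2 differences from 1.66 (Zfp608) to 1.20 (Zfp521). Zfp493 and Zfp473 reached a signal of 50 only in KO libraries.

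**Figure D1:**
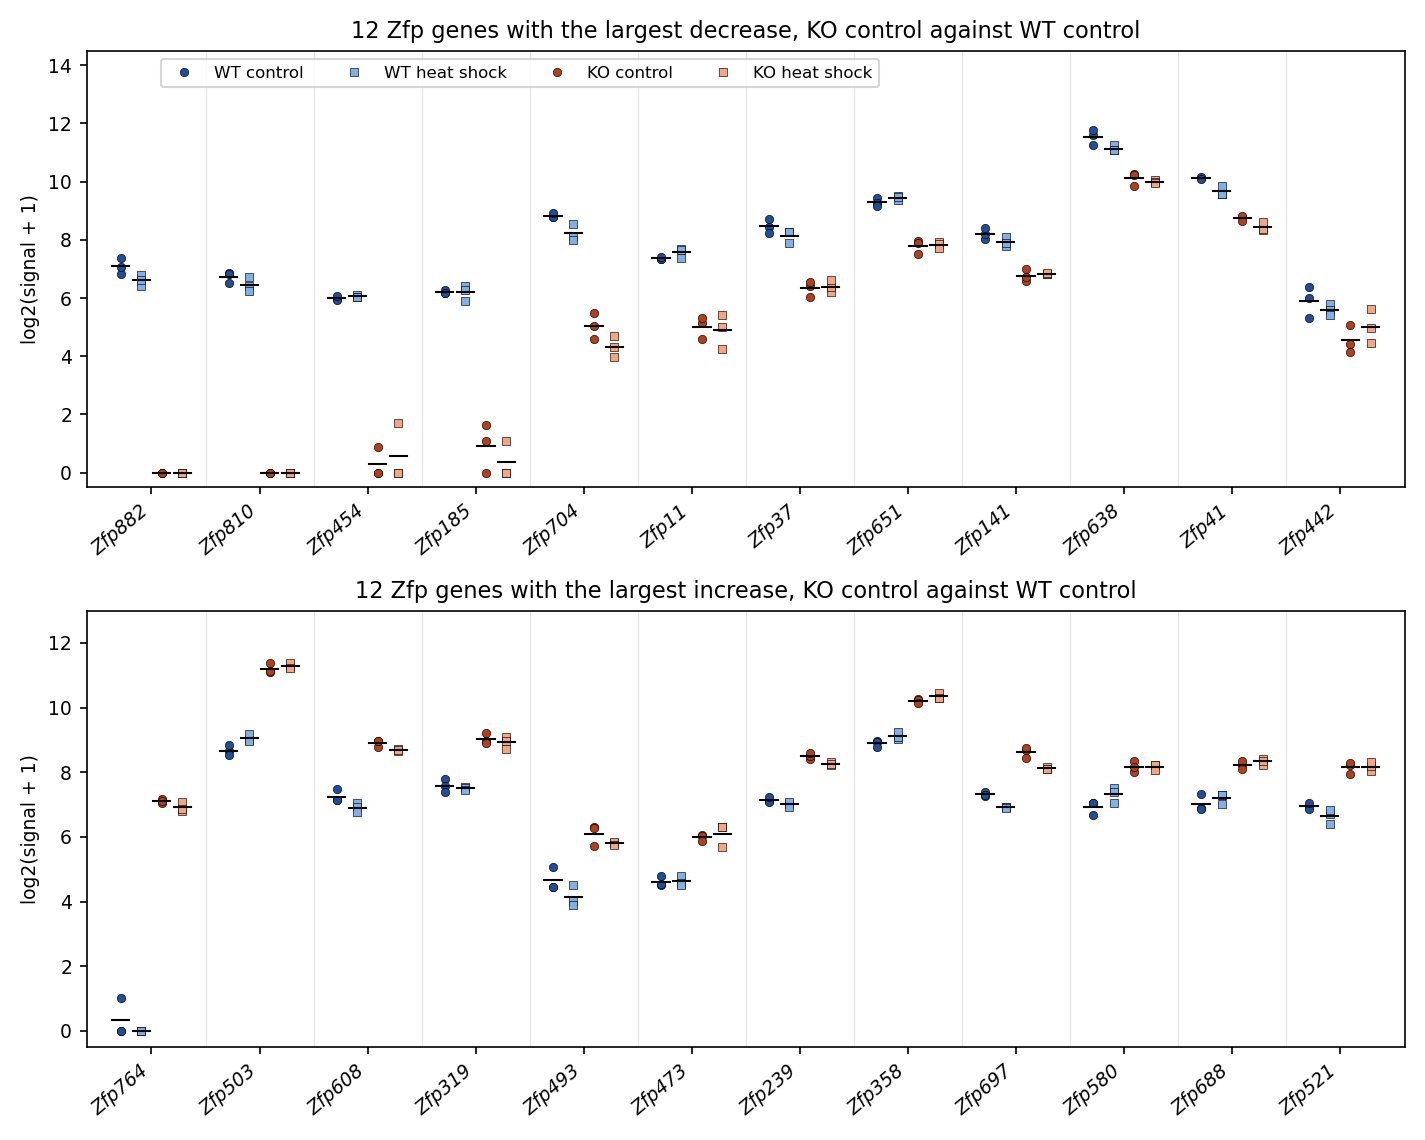
Signal of the 12 Zfp genes with the largest decrease and the 12 with the largest increase in KO control against WT control. Each point is 1 library on the log2(signal + 1) scale and each bar the mean of 3 libraries. The KO libraries of Zfp882 and Zfp810 lie at 0, those of Zfp503 at 2175 to 2671 in signal against 366 to 586 in WT.

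Among the genes with a role in RNA, 3 of 6 were lower in KO control, where 25.8% of all genes tested were lower. Zfp638, which encodes an RNA-binding protein that promotes fat cell differentiation through C/EBP factors, had a signal of 2445, 3081 and 3525 in WT control and 932, 1238 and 1209.7 in KO control. Every KO library lay below every WT library, with a log2 difference of -1.42 ± 0.12 (adjusted p = 5.67e-08). Zfp326, a subunit of the DBIRD complex that couples splicing to transcription, was lower by -0.72. Zfp36 encodes tristetraprolin, which binds AU-rich elements and recruits the CCR4-NOT deadenylase. Its signal was 465, 513 and 441 in WT control and 317, 336 and 261 in KO control, a difference of -0.64 ± 0.12 (adjusted p = 0.000179). The fold of Zfp36 fell under 1.5 without WT control 2 (-0.58), without KO control 3 (-0.53) and under quantile normalization (-0.52). Zfp106, Zfp346 and Zfp318 did not pass, at 0.05, 0.03 and 0.35.

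Of 19 tested genes of the tristetraprolin family and of deadenylation and decapping, 6 were lower in KO control and 1 was higher, and the median difference was -0.42. The 7 calls are 36.8% of the list, below the 48.8% over all genes tested. Dcp1b, a cofactor of decapping, had 429 reads in WT control and none in KO control, at least 115-fold lower in KO. Cnot2, a subunit of CCR4-NOT, was lower by -1.48 and Dcp2, the decapping enzyme, by -1.20. Cnot1, the scaffold of that complex, was higher by 1.07.

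The 3 genes of ribosome assembly and translation quality were not called. Zfp622 and Zfp593, whose products act on the large ribosomal subunit, differed by 0.30 and 0.45, and Zfp598 by 0.36. The 6 genes of spindle, genome stability and nucleolus were likewise below the threshold of fold, from -0.41 for Zfp207 to 0.38 for Zfp335.

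Of the 7 fat and mesenchymal lineage genes at this level, 2 were higher in KO control, where 22.9% of all genes tested were higher, and the other 5 differed by 0.20 to 0.46 without reaching the fold of 1.5. Zfp521, which holds progenitors back from the fat lineage and binds Ebf1, had a signal of 121, 116 and 133 in WT control and 298, 310.4 and 248 in KO control (log2 difference 1.20 ± 0.13, adjusted p = 8.23e-07). Zfp503 is the other. Zfp423, which commits cells to the fat lineage, was too low to be a member. Among 10 tested partners of these proteins, 5 were higher and 3 were lower in KO control, 80.0% of a short list against 48.8% of all genes tested. Pparg, the master regulator of fat cells, was higher by 4.38 but low, with 0, 1.44 and 0.699 in WT control and 40.3, 26.6 and 31.7 in KO control. Cebpa, which acts with it, had 41 reads in WT control and none in KO control, at least 10.9-fold lower in KO. Cebpd and Cebpb, early regulators of fat cell differentiation, were higher by 3.77 and 2.99, Prdm16, a regulator of brown fat, by 2.79. Ebf3 was lower by -5.26 and Bmp4, a signal that promotes fat cell commitment, by -3.82. Ebf1 itself was higher by 1.92.

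Members of 3 further role lists went both ways. The lists hold 6 GC-box binding and stem cell factors, 3 histone methylation partners and 3 genes linked to cohesin, Integrator and Notch. Of all genes tested 25.8% were lower in KO control and 22.9% higher. Zfp462, a protein of heterochromatin, was lower by -1.19 and Zfp644, a partner of the G9a and GLP methyltransferases, by -0.98. Zfp687, a partner of Zmynd8, was higher, with a signal of 1798, 1614 and 1524 in WT control and 2963, 2884 and 2757 in KO control (0.80 ± 0.07, adjusted p = 8.01e-08), whereas Zfp592, of the same complex, differed by -0.28. Zfp608 and its paralogue Zfp609, whose product binds the cohesin loader and the Integrator complex, differed from each other. Zfp608 had 139, 140.1 and 177 in WT control and 441, 495 and 501 in KO control (1.66 ± 0.11, adjusted p = 3.5e-09), and Zfp609 differed by -0.31. Zfp532 was lower by -0.74. The GC-box binding proteins Zfp148 and Zfp281 differed by -0.44 and -0.29 and did not pass. Zfp64 and Zfp292 belong to the same list, and their values are not given here.

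Of the 7 KRAB repressors with a known retroelement or imprinting role, 3 were lower in KO control and 1 was higher, where 25.8% and 22.9% of all genes tested were. Zfp809, which silences murine leukaemia virus in embryonic cells, had a signal of 157, 148 and 189 in WT control and 64.7, 83.2 and 95.0 in KO control (-1.02 ± 0.16, adjusted p = 4.38e-05). Zfp568, which represses the placental promoter of Igf2, had 608, 618 and 600.1 against 334, 280.5 and 274 (-1.04 ± 0.09, adjusted p = 6.9e-08). In both genes every KO control library lay below every WT control library. Zfp932, a repressor of endogenous retroviruses, was lower by -0.60 with 37.0% of its 50-base windows shared with another gene, and this call ended without WT control 3 (-0.37) and without KO control 1 (-0.47). Zfp661 was higher by 0.69, a call that ended without WT control 2 (0.57). Zfp57 and Zfp445, which keep imprints, differed by -0.10 and -0.20 and were not called, as was Zfp961 at -0.09.

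Genes with a KRAB motif were lower in 41 of 129 cases and higher in 9 (31.8% and 6.98%), with a median of -0.24. Those without were lower in 21 of 121 cases and higher in 17 (17.4% and 14.0%), with a median of -0.03. Among all genes at the same level 25.1% were lower and 20% higher. With quantile normalization 22 of the 129 were lower and 21 higher, and 18 and 23 of the 121. The KRAB genes then stood at 17.1% lower and 16.3% higher, both under the 22.1% and 24.4% of all genes at the same level. Of 30 genes of the KRAB corepressor machinery, 8 were lower in KO control (26.7%, against 25.8% of all genes tested) and 1 was higher, with a median of -0.19. Setdb1, the methyltransferase brought in by Trim28, was the higher one at 0.79. Suv39h1, a further H3K9 methyltransferase, was lower by -1.29, Atf7ip, the partner of Setdb1, by -1.22 and Mphosph8, a subunit of the HUSH complex, by -1.21.

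In the other zinc finger families the counts can be set against the 25.8% of all genes tested that were lower in KO control and the 22.9% that were higher. Of 23 tested Zfp symbols with a letter after the number, 10 were lower and 2 higher (43.5% and 8.70%). Of 39 Zbtb genes 7 were lower and 8 higher (17.9% and 20.5%), of 15 Klf genes 4 were lower and 7 higher (26.7% and 46.7%), and of 19 Zkscan and Zscan genes 5 were lower and 1 higher (26.3% and 5.26%).

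Zfp genes often stand in clusters that arose by duplication. Of the 250 genes with a single position, 100 stood in 14 runs of at least 4 members with gaps of at most 500000 bases. The runs detailed here are examples. In the run of 13 genes at chr7:29768552-30169750, 7 were lower in KO control and the other 6 were not called, with a median of -0.59 (Zfp30 -1.13, Zfp568 -1.04, Zfp566 -0.99), where 25.0% of all Zfp genes were lower. Of the 7, Zfp74 (-0.585) and Zfp790 (-0.60) lay at the edge of the fold threshold, 0.585 on the log2 scale. After heat shock 6 of the 13 were lower in KO, with a median of -0.42, where 20.2% of all Zfp genes were lower. The 3 other tested genes within it had a median of 0.10. In the run of 10 genes at chr7:127233061-127885996, 4 were higher (Zfp771 0.66, Zfp747 0.73, Zfp764, Zfp688 1.20) and the other 6 were not called. Zfp764 reached a signal of 50 only in KO libraries, so its place among the 4 is a description. Of all Zfp genes 10.3% were higher. The 19 other tested genes there had a median of 0.41, with 7 higher and 2 lower. After heat shock 2 of the 10 were higher in KO, against 14.3% of all Zfp genes, and the median was 0.03. In the run of 12 genes at chr17:21008903-22867134, every difference in control cells was below the fold of 1.5, from -0.28 to 0.52, with a median of 0.22. After heat shock 4 of the 12 were higher in KO, against 14.3% of all Zfp genes, with a median of 0.45. Upon heat shock in WT 3 of the 12 were lower, against 4.37% of all Zfp genes, and the median response was -0.27. The difference between the responses was called by limma for no Zfp gene. In 3 runs not detailed here, picked from the 14 for this outcome, most genes were lower in KO control and 0 were higher. These were 3 of 4 genes at chr7:27731389-28380253, 3 of 4 at chr9:22055411-22307648 and 3 of 5 at chr9:20345136-20605409. Of all Zfp genes 25.0% were lower. After heat shock 3, 2 and 1 genes of these runs were lower in KO, against 20.2% of all Zfp genes. The first run holds Zfp36, whose call ended in some alternatives, as given above. The second holds Zfp810, which reached a signal of 50 only in WT libraries. Neighbours can lose or share reads through similar sequence and were not treated as independent. Of the 250 genes, 125 had under 1% of their 50-base windows in common with another gene, and 20 had over 20%.

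**Figure D2:**
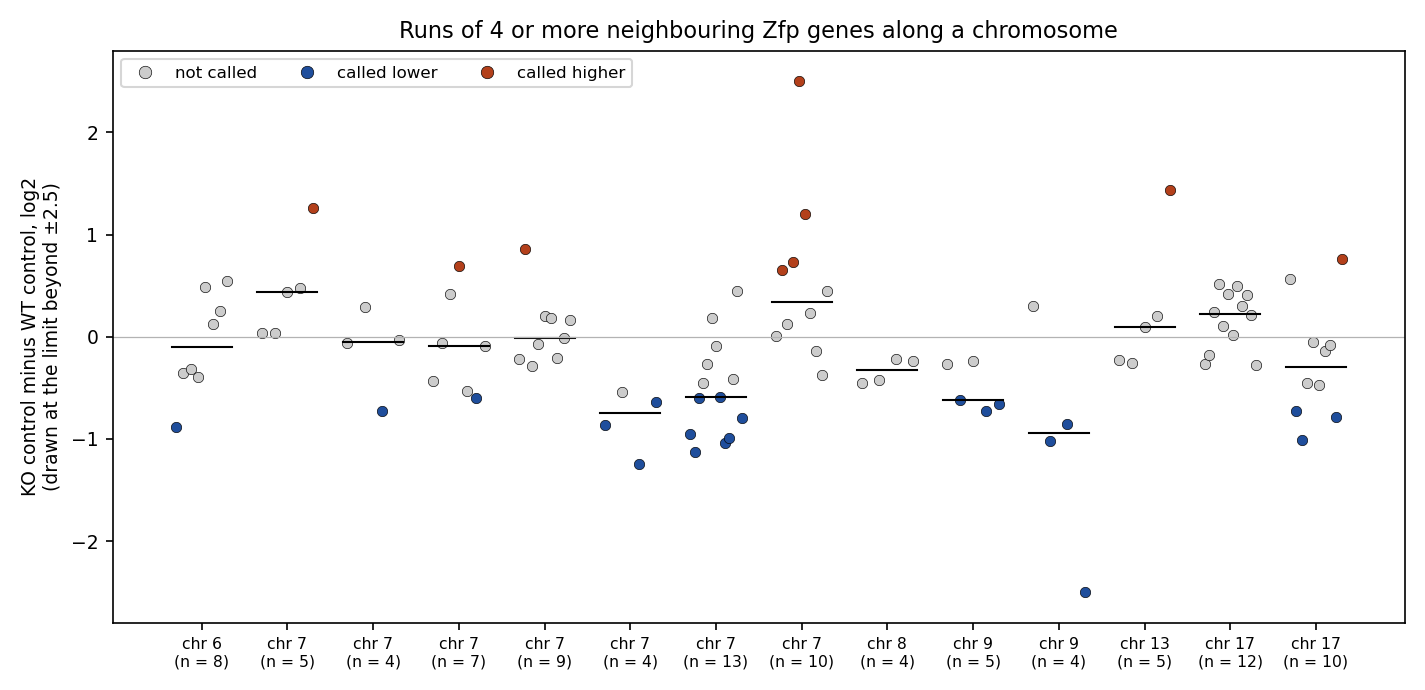
Difference between KO control and WT control, on the log2 scale, for the genes of 14 chromosomal runs of at least 4 Zfp genes. Each point is 1 gene, black bars are medians and n is the number of genes in the run. Zfp810 and Zfp764 are drawn at the limits of the axis. The run of 13 genes on chromosome 7 has a median of -0.59 and the run of 10 a median of 0.34.

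In the heat-shocked cells 51 Zfp genes were lower in KO and 36 were higher (34.5% of 252), against 48.7% of all genes tested and 45.4% of those at the same level, and the median was -0.07. Of all genes tested 25.5% were lower and 23.2% higher, and of those at the same level 24.6% and 20.9%. The 2 comparisons share no library. Of the 63 genes lower in control cells, 41 were also lower after heat shock (65.1% of the first list and 80.4% of the second), and of the 26 that were higher, 24 were higher again (92.3% and 66.7%). Over all genes at the same level the shares were 87.4% and 89.3% for lower and 88.3% and 84.7% for higher genes. All 89 genes called in control cells kept their sign. With quantile normalization the counts were 33 lower and 55 higher, a share of higher calls of 62.5% in place of 41.4%.

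**Figure D3:**
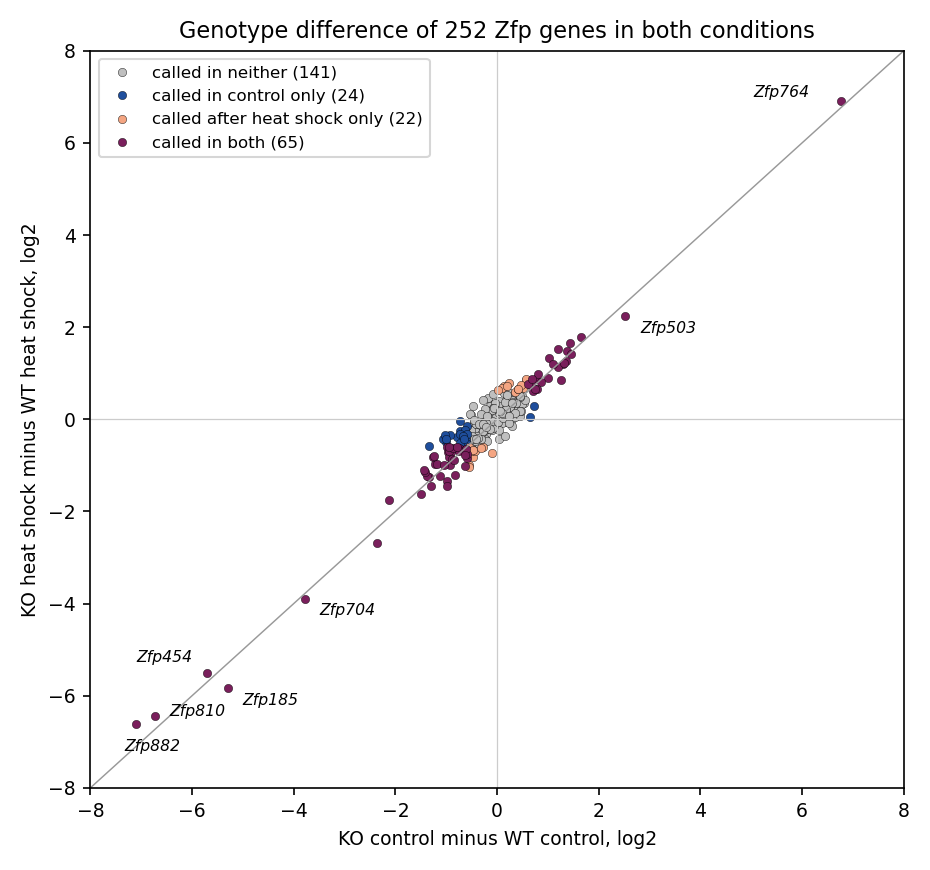
Difference between KO and WT on the log2 scale in control cells (horizontal) and after heat shock (vertical) for 252 Zfp genes, each 1 point, with the line of equal values. Of them 65 were called in both conditions, 24 only in control, 22 only after heat shock and 141 in neither. Fitted values of genes at 0 in 1 genotype depend on the pseudocount of 1.

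Upon heat shock in WT, Zfp genes were called only in the lower direction. Of the 252 genes 11 were lower (4.37%), against 2.02% of all genes tested and 1.68% of those at the same level that were lower. No Zfp gene was higher by limma, edgeR or DESeq2, although 21 had a higher fitted value at an unadjusted p under 0.05. In either direction 3.68% of all genes tested and 2.63% of those at the same level were called. The difference was negative in 183 of 252 genes and the median was -0.19, against 0.00 over all genes. The 3 heat-shocked libraries lay below the 3 controls in 82 genes and above them in 22. Among all genes at the same level, 23.4% had their libraries below and 23.8% above. All Zfp genes together took 0.670% to 0.722% of the signal in WT control and 0.552% to 0.626% after heat shock.

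Of the 11 genes lowered in WT, 10 had a KRAB motif, as did 129 of 250 Zfp genes, and 7 lay on chromosome 17, as did 29 of the Zfp genes. Zfp763 (chr17:33016863-33033402) had a signal of 108, 130.0 and 169.8 in WT control and 84.9, 70.7 and 62.0 after heat shock, a fall by 0.88 ± 0.17 (adjusted p = 0.00303). Zfp472 (chr17:32965814-32979233), its neighbour in the same run, had 114, 159.6 and 161 in control and 83.0, 73.9 and 70.3 after heat shock, a fall by 0.91 ± 0.18 (adjusted p = 0.00269). Zfp871, of the same run, had 559.9, 549 and 588 in control and 434, 303 and 307 after heat shock (-0.72 ± 0.13, adjusted p = 0.0022). The heat-shocked libraries lay below the controls in all 3 genes, as in the other 8. Zfp738, with the largest fitted fall (-0.93), had 51.8, 55.6 and 89.4 in control and 41.5, 26.1 and 33.1 after heat shock. Zfp229, Zfp951, Zfp51 and Zfp53 fell by 0.76, 0.70, 0.67 and 0.66.

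The number of genes lowered in WT depended on single libraries. It was 4 without WT control 3, 7 without WT control 2, 7 without heat-shocked WT 2, 17 without heat-shocked WT 1 and 20 without WT control 1. Zfp472, Zfp763, Zfp229 and Zfp871 were called in every alternative. Mitochondrial genes took 1.19% of the reads of WT control 3, against 0.687% and 0.892% in the other WT controls and 0.687% to 0.701% after heat shock, and the summed signal of the 11 fibroblast markers was 205424 to 231760 in WT control and 341166 to 372507 in heat-shocked WT. In KO the same sum was 217749 to 225678 in control and 303755 to 344769 after heat shock. Single markers within the sum differed between the genotypes in both directions. Col1a1 had a mean signal of 98358 in WT control and 12738 in KO control, and Pdgfra 9001 and 3034. Thy1 had 517 and 8249, and Fn1 30923 and 76651. The part of the mitochondrial share and of these markers in the result was not tested. Fewer cells of a kind and less RNA per cell cannot be told apart in bulk RNA.

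**Figure D4:**
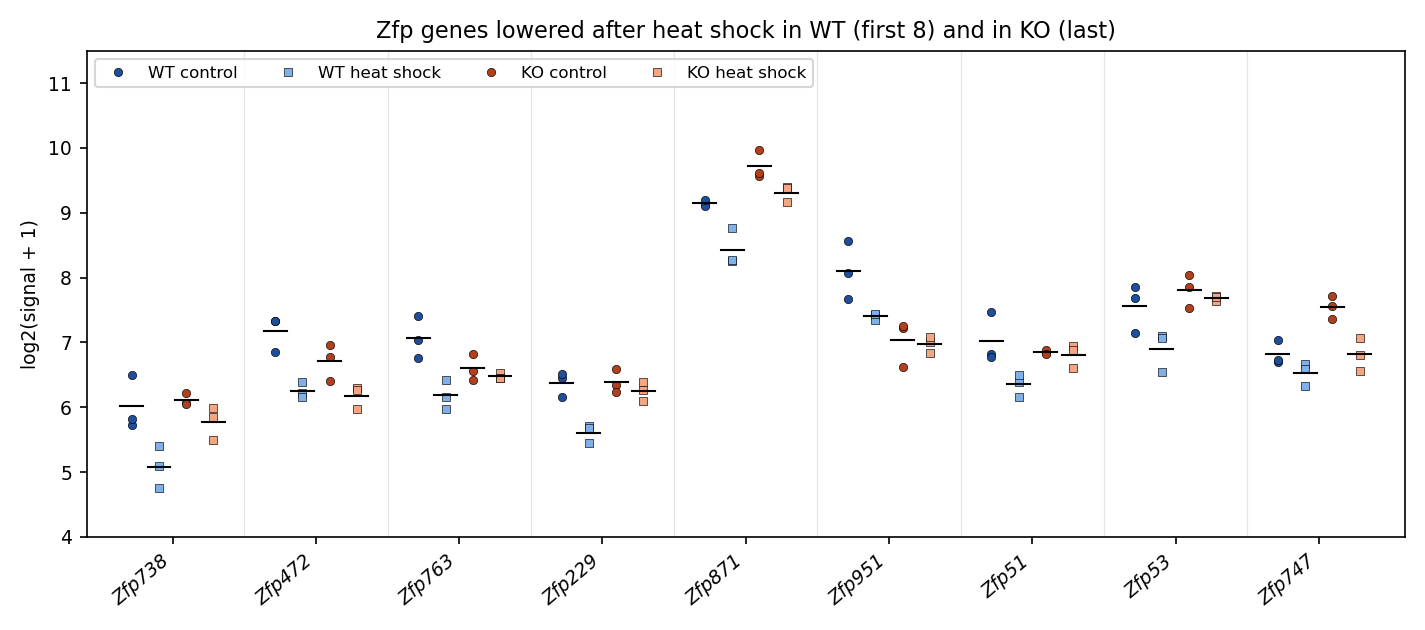
Signal of the 8 Zfp genes with the largest fall after heat shock in WT, and of Zfp747, which fell in KO. Each point is 1 library on the log2(signal + 1) scale and each bar the mean of 3 libraries. In the first 8 genes the heat-shocked WT libraries lie below the WT controls.

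Upon heat shock in KO, Zfp747 was the only Zfp gene called (0.397% of 252), against 0.887% of all genes tested and 0.733% of those at the same level, and the median was -0.06. The difference was negative in 161 of 252 genes. The heat-shocked libraries lay below the controls in 51 genes (20.2%) and above them in 9 (3.57%), against 10.9% and 12.5% of all genes at the same level. All Zfp genes together took 0.618% to 0.644% of the signal in KO control and 0.576% to 0.587% after heat shock, without overlap, as in WT. Zfp747 (chr7:127372537-127376050) had a signal of 210.0, 189 and 164 in KO control and 93.8, 111 and 134 after heat shock (-0.74 ± 0.16, adjusted p = 0.0236), with 131, 103 and 105 and then 101, 79.4 and 95.1 in WT. The KO groups did not overlap. The call ended without KO control 1 (-0.65), KO control 2 (-0.73), heat-shocked KO 1 (-0.61) or heat-shocked KO 2 (-0.73). 34.4% of the 50-base windows of Zfp747 were shared with another gene.

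The 11 genes lowered in WT all had negative values in KO as well, from -0.55 to -0.04, each smaller in size than in WT. They were chosen by their fall in WT, and that choice alone favours a smaller size in KO. A test of the difference between the responses called no Zfp gene by limma, edgeR or DESeq2. Of all genes tested limma called 0%, edgeR 10 and DESeq2 35. By limma 43 Zfp genes and 2532 genes in all had an unadjusted p under 0.05. The lowest adjusted p was 0.112, for Zfp106. Zfp106 had 8418, 8721 and 9151 in WT control, 6860.1, 6139.8 and 5917 in heat-shocked WT, 8965, 9063 and 9117 in KO control, and 8007, 8492 and 8302 in heat-shocked KO. Its response in KO minus that in WT was 0.35 ± 0.08, so that an unequal response was not shown for any Zfp gene. Zfp36, known as an early gene induced by many stimuli, had 616, 567 and 467 in heat-shocked WT and 284, 246 and 277 in heat-shocked KO, and its responses of 0.21 and -0.17 were not called.

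Genes with a KRAB motif had a median response of -0.25 in WT and -0.07 in KO, and those without had -0.08 and -0.04. In WT 110 of the 129 genes with a KRAB motif had negative values, against 71 of the 121 without. The 2 classes also differ in level, as given above, and the difference between them was not tested. The motif GAANNTTC, the paired core of a heat shock element, was searched on both strands, which are alike for this palindrome, in the 250 bases before the start. It occurred in 18 of 207 Zfp promoters (8.70%), in 4.80% of the promoters of genes tested and in 6.78% of all 27025 promoters. It was not in the windows of the 9 genes lowered in WT that the promoter table holds, and 9 windows are too few to read an absence at such shares. Among Zfp genes lower in KO control it occurred in 2 of 50 promoters, and among those higher in 5 of 20. These shares were not tested.

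**Figure D5:**
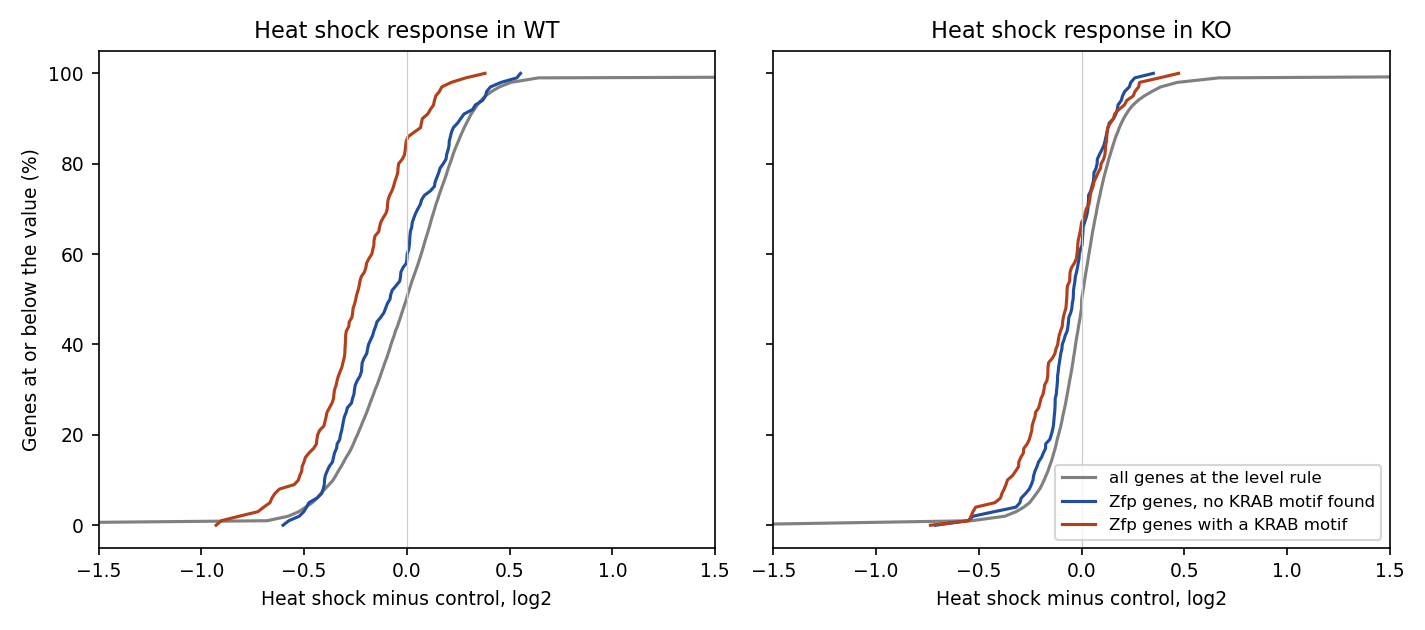
Cumulative share of genes, in percent, by their response to heat shock (log2, heat shock minus control) in WT (left) and KO (right), for all 11725 genes at the same level and for Zfp genes with and without a KRAB motif. The WT curve of genes with a KRAB motif has its median at -0.25 and that of genes without at -0.08. In KO the medians are -0.07 and -0.04.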

How the data were processed

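Messenger RNA libraries of 4 groups of 3 were sequenced by the authors as 75-base pairs from a stranded kit. Their reads were trimmed with cutadapt 1.10, aligned with STAR 2.5.2 and counted per gene with HTSeq-count. The submitters' notes name mm9 and the methods GRCm38, and whether counting used strand is not given in the sources used here. The deposited signal is a read count that the authors scaled by the DESeq2 size factor of its library. All values were whole reads within 0.01 read (100%), so reads were recovered for tests on counts.

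The 14201 genes reaching a signal of 10 in 3 or more libraries were fitted with limma 3.58.1 (R 4.3.3) on log2(signal + 1), with a trend, 1 mean per group and no block, and Benjamini-Hochberg adjustment over all of them. All 252 Zfp genes passed this filter. Fold changes on this scale understate those of low genes. A call needed an adjusted p up to 0.05 with a fold of 1.5 or more. Alternatives were edgeR 4.0.16 and DESeq2 1.42.0 on recovered reads, a pseudocount of 5, no filter, a filter of 50, quantile normalization, a replicate block, each genotype fitted alone and leaving out each library.

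Genes are named where they were among the 12 largest called differences in each direction between the control groups with libraries apart, had at most 3 reads in 1 genotype, were called in a heat shock comparison (up to 8 in each direction), belonged to a role list, had the 5 highest or lowest mean signals or lay next to the limit of 50. Related lists give up to 4 examples in each direction by fitted change, and Ebf1 besides, as a partner of Zfp521. Members and lists were chosen with earlier results of these data known.

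Positions and exon lengths are from GENCODE M21 (GRCm38), and the table itself gives none. Reading frames are the longest from ATG to stop, a finger is C, 2 residues, C, 12 residues, H, 3 to 5 residues and H or C, and a KRAB motif is a match to 1 of 3 patterns. Promoters are the first listed RefSeq start of each gene.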

Additional observations from a re-analysis of the deposited data

How the results depend on the processing

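Counts of Zfp genes called with edgeR, DESeq2, a pseudocount of 5, no filter or a filter of 50 stayed within 1.5 times those given above. Quantile normalization moved KO control against WT control to 44 higher and 40 lower genes, KO against WT after heat shock to 55 and 33, and heat shock in WT to 2 higher (Zfp428 and Zfp771, named after their values were seen). With each genotype fitted alone, 6 genes were lower after heat shock in WT and 0 in KO, with fewer libraries behind the spread. Leaving out 1 library at a time gave 24 to 30 higher and 56 to 71 lower genes in KO control, 33 to 40 and 43 to 56 after heat shock, 0 to 2 higher (again Zfp428 and Zfp771) and 4 to 20 lower in WT upon heat shock, 0 to 2 lower in KO, and 0 to 1 higher (Zfp652, without heat-shocked WT 1) for the difference between the responses. The cause of these changes was not tested.

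Groups share the replicate numbers 1 to 3, but of 18 correlations between deviations of libraries with the same number only 2 were above 0.1 (median -0.0156), so no pairing by number was assumed. A replicate block gave 26 higher and 63 lower genes in KO control and 12 lower in WT upon heat shock. Of the values of 72 named genes recomputed under the alternatives, 36 lost a call, 29 gained one and 6919 did neither. No called value changed sign. The 6919 include all 1368 values of the difference between the responses, where no Zfp gene was called. Between the control groups, 40 of the 63 lower and 22 of the 26 higher Zfp genes were called in every alternative. After heat shock 33 of the 51 lower and 29 of the 36 higher were. With 3 libraries a group, genes near a signal of 50 rest on few reads, and in well-read genes differences under 1.5-fold were set aside by the threshold of fold rather than by depth.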
